A study of Mus musculus with 24 samples.

Results

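The genes described here are the 10 interferon-inducible GTPases Gbp2, Gbp3, Gbp5, Gbp6, Gbp7, Irgm1, Irgm2, Igtp, Iigp1 and Ifi47. They were taken by symbol from the 24454 genes of the counts table, and all 10 passed the filter on low counts that left 16317 genes for testing. RNA was measured in organs of Corti (OCs), the sensory epithelium of the cochlea, explanted from C57BL/6N pups of both sexes at postnatal day 5 and kept in culture for 24 h before treatment. The control group (CTRL) then received medium without drugs, the GM group 50 μM gentamicin, an aminoglycoside antibiotic toxic to hair cells (HCs), the PIO group 10 μM pioglitazone, which activates the nuclear receptor PPAR-γ, and the PIO + GM group both drugs. Treatment lasted 6 or 24 h, which gave 8 groups of 3 libraries and 24 libraries in all. Each library was made from 6 pooled OCs, and such explants have no circulation. The labels do not tie a library to a litter or a culture day, so the p-values measure the spread between these pooled samples.

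Interferons bind receptors whose kinases JAK1, JAK2 and TYK2 activate transcription factors. Target promoters carry the GAS element, which responds to interferon gamma, or the element called ISRE, which responds to type I interferons and is bound by a complex that contains STAT2 and IRF9. Guanylate-binding proteins (GBPs) and immunity-related GTPases (IRGs) are among the most strongly induced products of these elements. GBPs assemble on the membranes of pathogen vacuoles and on bacteria, open them, and promote inflammasome activation. IRGs with the GKS motif, among them Iigp1 and Ifi47, load onto pathogen vacuoles as effectors. The GMS proteins Irgm1, Irgm2 and Igtp sit on the cell's own membranes and hold the GKS proteins inactive there.

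The GBP genes of this set lie in 2 clusters. On build GRCm38, which carries the same coordinates as mm10, Gbp5 (chr3:142496934-142522344), Gbp7 (chr3:142530336-142550151), Gbp3 (chr3:142560016-142573213) and Gbp2 (chr3:142620663-142638008) follow each other on the plus strand of chromosome 3. Gbp6 (chr5:105270702-105295871) lies on the minus strand of chromosome 5. Irgm1 (chr11:48865245-48871420, minus strand), Ifi47 (chr11:49076587-49096987), Igtp (chr11:58199556-58207592) and Irgm2 (chr11:58214977-58222783) lie on chromosome 11, and Igtp and Irgm2 are neighbours on the plus strand.

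Promoter windows of 300 bases, from 250 before to 50 after the annotated start, were taken from RefSeq (GRCm38.p6) for 8 of the 10 genes, with 2 windows for Gbp3. No window of Gbp6 or Iigp1 was searched. An ISRE-like run, GAAA followed after any 2 bases by a second GAAA, searched on both strands, was present in 7 of the 8 genes, against 3.44% of 32851 windows and 3.99% of 27025 genes. Overlapping matches were counted separately, which gave 2 in Gbp3 and 2 in Irgm1. A GAS-like run TTCNNNGAA, which reads the same on both strands, was present in Gbp5, Gbp7, Irgm2 and Igtp (4 of 8 genes), against 8.3% of windows and 9.55% of genes. Ifi47 held no match of either kind in its window. The ISRE-like match lay close to the start in most of them, from -59 to -50 in Gbp2, from -53 to -44 in Gbp7, from -45 to -30 in Gbp3, from -34 to -25 in Igtp, from -30 to -15 in Irgm1 and from -64 to -55 in Irgm2, but from -165 to -156 in Gbp5. The 6 windows with the ISRE-like match within 64 bases of the start are printed 5′ to 3′ on the strand of the gene, with matches of either motif in capitals (an ISRE-like run on the other strand starts and ends with TTTC). They span chr3:142620413-142620712 for Gbp2, chr3:142559794-142560093 for Gbp3, chr3:142530086-142530385 for Gbp7, chr11:48871371-48871670 on the minus strand for Irgm1, chr11:58214727-58215026 for Irgm2 and chr11:58199306-58199605 for Igtp.
Gbp2: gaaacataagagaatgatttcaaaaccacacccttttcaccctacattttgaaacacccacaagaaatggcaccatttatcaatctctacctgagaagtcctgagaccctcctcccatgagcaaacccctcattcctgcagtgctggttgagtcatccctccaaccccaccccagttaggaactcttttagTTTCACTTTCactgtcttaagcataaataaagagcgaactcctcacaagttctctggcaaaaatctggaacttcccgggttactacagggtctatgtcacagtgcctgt
Gbp3: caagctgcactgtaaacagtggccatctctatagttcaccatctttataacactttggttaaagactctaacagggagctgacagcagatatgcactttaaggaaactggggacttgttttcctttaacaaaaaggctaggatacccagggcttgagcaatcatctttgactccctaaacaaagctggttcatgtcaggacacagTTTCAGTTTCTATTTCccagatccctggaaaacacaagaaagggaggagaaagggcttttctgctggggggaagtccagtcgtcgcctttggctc
Gbp7: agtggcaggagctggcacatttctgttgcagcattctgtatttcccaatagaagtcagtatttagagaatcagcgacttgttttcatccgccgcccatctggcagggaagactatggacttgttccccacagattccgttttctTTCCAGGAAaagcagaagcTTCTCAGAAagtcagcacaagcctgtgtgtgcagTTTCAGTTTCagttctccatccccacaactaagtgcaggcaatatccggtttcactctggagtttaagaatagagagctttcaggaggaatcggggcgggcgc
Irgm1: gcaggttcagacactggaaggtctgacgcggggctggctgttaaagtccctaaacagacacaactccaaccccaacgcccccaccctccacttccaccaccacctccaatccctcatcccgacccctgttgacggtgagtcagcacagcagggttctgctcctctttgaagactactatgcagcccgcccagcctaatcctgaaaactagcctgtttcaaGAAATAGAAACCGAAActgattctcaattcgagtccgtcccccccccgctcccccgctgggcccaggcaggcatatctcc
Irgm2: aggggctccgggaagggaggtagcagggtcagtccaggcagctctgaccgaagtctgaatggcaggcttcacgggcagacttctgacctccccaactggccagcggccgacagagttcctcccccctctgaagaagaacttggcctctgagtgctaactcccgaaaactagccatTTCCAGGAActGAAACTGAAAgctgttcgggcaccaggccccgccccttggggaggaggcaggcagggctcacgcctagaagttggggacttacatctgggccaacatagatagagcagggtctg
Igtp: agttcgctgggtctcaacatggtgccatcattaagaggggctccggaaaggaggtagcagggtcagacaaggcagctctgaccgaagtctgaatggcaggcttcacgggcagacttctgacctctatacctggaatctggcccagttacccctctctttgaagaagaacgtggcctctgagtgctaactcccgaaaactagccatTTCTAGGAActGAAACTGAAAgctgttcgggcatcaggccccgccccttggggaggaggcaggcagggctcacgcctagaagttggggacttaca

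The windows of the neighbours Irgm2 and Igtp were also compared with a shift, which was done for no other pair. They were identical at 25.7% of positions without a shift and at 184 of 270 positions (68.1%) with Igtp shifted by 30 bases, and the capitals of both read as a GAS-like run followed 2 bases later by an ISRE-like run. A match is a run of letters, and the counts reported here do not measure binding.

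Not all of the 10 genes can be counted apart from their relatives. Of the 76-base windows of the Gbp6 transcript, 85.9% also occurred in another gene, 85.9% in the overlapping gene Gm43302 and 51.4% in Gbp10. How reads with several matches were treated is not given in the sources used here, so Gbp6 and Gbp10 are uncertain as separate genes, and a Gbp6 count may include reads from its neighbours. For Gbp7 the shared part was 11.4%, most of it (10.1%) with the pseudogene Gm43802. Of the Igtp windows, 8.22% also occurred in Irgm2, and 3.94% of the Irgm2 windows occurred in Igtp. The annotations of these neighbours have 162 exonic bases in common. For Gbp3, Ifi47, Gbp2 and Gbp5 the share was between 0.0336% and 2.61%, and Irgm1 and Iigp1 shared none.

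Per length of transcript, Gbp6 and Irgm1 were the most abundant of the 10 and Ifi47 and Gbp5 the least. The mean log2 RPKM (counts scaled by library size and counted length, prior count 2, SD over the 24 libraries) was 4.28 ± 0.55 for Gbp6, 4.08 ± 0.84 for Irgm1 and 3.42 ± 0.73 for Iigp1, a gene on chromosome 18. These 3 formed the upper tier. It was 2.48 ± 0.71 for Igtp, 2.40 ± 1.19 for Gbp3, 2.28 ± 1.09 for Gbp2, 2.27 ± 0.63 for Irgm2 and 2.10 ± 0.67 for Gbp7, which formed a middle tier. Ifi47 (0.13 ± 1.26) and Gbp5 (-1.04 ± 1.38) stood lowest, with 5 to 154 and 1 to 194 counts per library. Along this order, 3 neighbouring pairs differed by more than the SD of their difference. Iigp1 exceeded Igtp by 0.93 ± 0.70 in log2 RPKM (higher in 21 of 24 libraries), Gbp7 exceeded Ifi47 by 1.98 ± 0.78 (24 of 24), and Ifi47 exceeded Gbp5 by 1.17 ± 0.64 (22 of 24). The other neighbours did not differ beyond their spread. The order moved with time, since at 6 h the mean log2 RPKM of Irgm1 (4.64) stood above that of Gbp6 (4.03), and at 24 h Gbp6 (4.52) stood above Iigp1 (3.67) and Irgm1 (3.53).

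**Figure D1:**
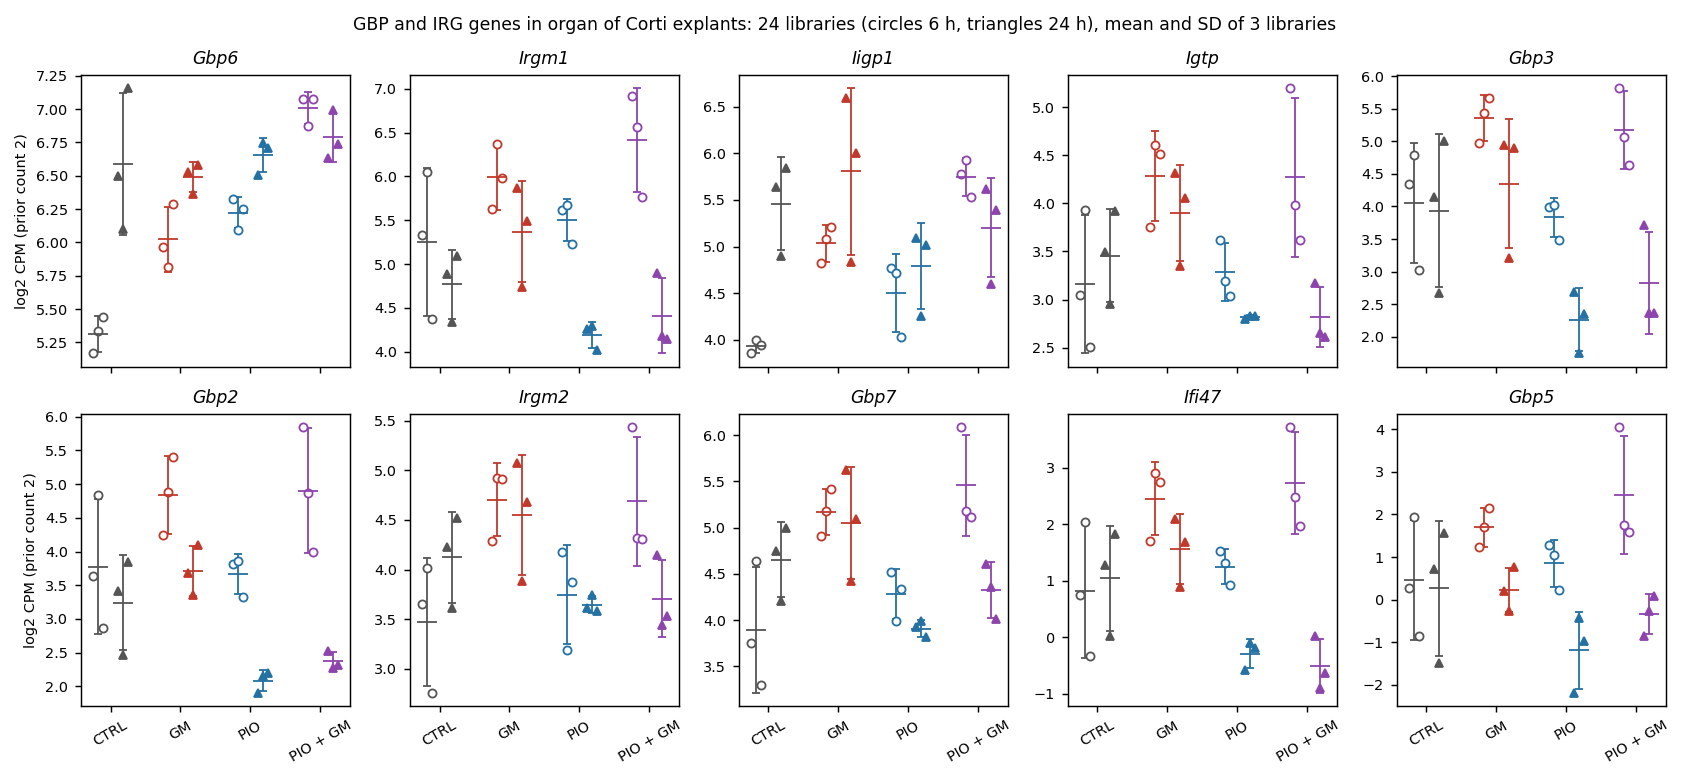
Level of each of the 10 genes in the 24 libraries, as log2 CPM (counts scaled to library size, y axis) by treatment (x axis), with circles for 6 h, triangles for 24 h, and bars for the mean and SD of 3 libraries. Gbp6 spans 5.17 to 7.16, whereas Gbp5 spans -2.18 to 4.05, and in 8 of 10 panels the highest point is the same library, PIO + GM at 6 h replicate 1.

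The libraries differed in make-up within groups, and the same library set the upper end of most genes. PIO + GM at 6 h replicate 1 was the highest of the 24 libraries for 8 of the 10 genes. Gbp6 was highest in CTRL at 24 h replicate 3 and Iigp1 in GM at 24 h replicate 1. Library totals ranged from 7211357 to 15548856 counts on genes with a median of 12538495, and a floor of 3 counts per library equals 0.193 to 0.416 CPM (counting error only). The labelled tissue was checked on fixed markers, and all 12 HC markers (Myo7a, 292 to 1437 counts) and all 10 supporting cell markers (Sox2, 261 to 1243 counts) were detected in every library. Of the supporting cell markers Tectb (18103 to 95061 counts) and Epyc (9083 to 50846) had the most counts, so a sum of these markers rests largely on them. In each group 1 library had a lower sum of supporting cell markers, 3205 to 4856 CPM against 5871 to 10902 CPM in the other 16. At 24 h these were the libraries numbered 2, at 6 h CTRL replicate 2, GM replicate 3, PIO replicate 3 and PIO + GM replicate 1. Calls that move without these 8 libraries are given with both values. In bulk RNA, fewer cells of a type and less RNA per cell cannot be told apart.

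Macrophages express GBPs and IRGs, so their markers were set beside the results. All 14 macrophage markers were detected in all libraries, and their summed CPM ranged at 6 h from 71.6 to 151 in CTRL, 71.6 to 152 in GM, 69.2 to 130 in PIO and 80.6 to 107 in PIO + GM. At 24 h it ranged from 134 to 181 in CTRL, 128 to 260 in GM, 92.7 to 249 in PIO and 88.6 to 242 in PIO + GM. T and NK cell markers summed to at most 9.01 CPM. Counts were 0 to 6 for Cd3e, 0 to 2 for Gzmb, 0 to 13 for Klrb1c, 1 to 18 for Cd8a and 4 to 34 for Cd4, and Trbc2 was not among the counted genes. The 4 B cell markers summed to at most 4.85 CPM. These lymphoid sums were highest in PIO + GM at 6 h, from 3.43 to 9.01 CPM for T and NK cells and from 3.19 to 4.85 CPM for B cells. The part of any of these cells in the levels of the 10 genes was not tested.

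The interferons themselves were at the edge of detection. Of 6 ligand genes, none passed the filter, and the highest count in any library was 5 for Ifng, 3 for Ifna2, 2 for Ifnb1, 2 for Ifna4 and 1 for Ifnl2 and for Ifnl3. All 7 receptor and kinase genes (Ifngr1, Ifngr2, Ifnar1, Ifnar2, Jak1, Jak2, Tyk2) were tested, as were 9 of 10 transcription factors, 5 of 5 negative regulators and 10 of 12 further GBP and IRG genes. The 2 family genes that were not tested, Gbp2b and Irgc1, reached 12 and 3 counts at most.

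The comparison of GM with CTRL asks what the aminoglycoside alone did. At 6 h all 10 genes were on average higher in GM. The median of their log2 fold changes was 1.09 against -0.0014 over all 16317 genes, but none passed the threshold of adjusted p under 0.05 in edgeR's quasi-likelihood test, nor did any gene of the table (0%), nor any of the 10 by DESeq2. At an unadjusted p under 0.05, 7 of the 10 were higher against 0.962% of all genes, and the libraries of 5 did not overlap between the groups, against 3.14% of all genes. The count of 7 was 4 without GM replicate 2 or without CTRL replicate 3, and 10 without CTRL replicate 2 or without the 8 libraries low in supporting cell markers.

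Gbp6 had the lowest p of the 10, with log2 CPM of 5.17, 5.33 and 5.44 in CTRL and 5.96, 5.81 and 6.29 in GM. Every GM library was above every CTRL library, and the log2 fold change was 0.72 ± 0.19 (SE; edgeR, adjusted p = 1.00, as for the other 9). Log2 CPM of Gbp7 was 3.76, 4.64 and 3.30 in CTRL and 4.91, 5.18 and 5.42 in GM, again without overlap, and the log2 fold change was 1.19 ± 0.34. Among the GMS regulators, Irgm2 had 3.65, 4.01 and 2.76 in CTRL and 4.29, 4.92 and 4.91 in GM in log2 CPM. Its groups did not overlap either, with a log2 fold change of 1.18 ± 0.38. Igtp, its neighbour, had 3.05, 3.93 and 2.5 in CTRL and 3.75, 4.61 and 4.51 in GM, so CTRL replicate 2 lay above GM replicate 1 (log2 fold change 1.07 ± 0.40). The GKS effector Iigp1 had 3.86, 4.00 and 3.95 in CTRL, the tightest control values of the set, and 4.82, 5.08 and 5.21 in GM. All GM libraries were above them, with a log2 fold change of 1.12 ± 0.36. Ifi47 had the largest log2 fold change of the 10, 1.48 ± 0.57, and Gbp3 had 1.17 ± 0.54. For Gbp2, Irgm1 and Gbp5, which had unadjusted p above 0.05, the log2 fold changes were 0.92 ± 0.45, 0.62 ± 0.36 and 0.92 ± 0.78.

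The rest of the pathway was read from lists fixed by function. Of 10 further GBP and IRG genes tested, 10 had positive log2 fold changes in GM against CTRL at 6 h and 6 had an unadjusted p under 0.05 in edgeR, the chromosome 5 relatives Gbp9 (0.63 ± 0.17), Gbp10 (0.79 ± 0.22), Gbp11 (0.99 ± 0.30), Gbp4 (0.51 ± 0.19) and Gbp8 (0.54 ± 0.24), and Gm12250 (1.01 ± 0.45). Of 9 transcription factors, 7 were positive and 4 had p under 0.05, among them Irf7 (1.92 ± 0.62), a factor of the type I interferon loop, Stat2 (0.85 ± 0.33) and Irf9 (0.46 ± 0.22). Among 5 negative regulators, Usp18, an interferon-induced brake on the type I receptor, had an unadjusted p under 0.05 and a log2 fold change of 1.94 ± 0.68. None of the 7 receptors and kinases had p under 0.05, and their median was 0.02. The lowest adjusted p of each of these lists was 1.00. Beside this, 11 of 14 macrophage markers and 8 of 8 Schwann cell markers had positive log2 fold changes, with p under 0.05 for none of them, and their part was not tested.

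At 24 h, 8 of the 10 genes were on average higher in GM, the median of the log2 fold changes was 0.45, and the groups of every gene overlapped. None had an unadjusted p under 0.05 in edgeR, none was past the adjusted threshold by edgeR or DESeq2, and 0.0123% of all genes were. Irgm1 had the lowest p, with log2 CPM of 4.89, 4.33 and 5.09 in CTRL and 5.87, 4.74 and 5.49 in GM (log2 fold change 0.64 ± 0.37, edgeR, adjusted p = 1.00). The GM replicate 2 was within the CTRL range and the other GM libraries above it. Same-numbered libraries of these groups deviated together, and in all 3 such pairs GM was above CTRL for Gbp2, Gbp7, Irgm1, Irgm2 and Igtp, 5 of 10 genes against 14.2% of all genes. With the replicate number as a block Irgm1 had p under 0.05 (0.60 ± 0.28, edgeR, adjusted p = 1.00). Without GM replicate 2, Irgm1 and Iigp1 were higher with p under 0.05, and without CTRL replicate 2, Gbp6 was lower with p under 0.05 (-0.37 ± 0.17, edgeR, adjusted p = 1.00). The median was 0.13 without GM replicate 1, 0.17 without CTRL replicate 2, 0.71 without GM replicate 2 and 0.70 without CTRL replicate 3. Among the other family genes Tgtp2, a GKS-type GTPase, had counts of 16, 7 and 13 in CTRL and 94, 20 and 22 in GM (log2 fold change 1.82 ± 0.57, edgeR, adjusted p = 1.00). The difference between the GM effects at the 2 times passed the threshold for none of the 10 genes in edgeR (0% of all genes) or DESeq2. At 24 h against 6 h it was negative for 9 of 10 genes (median -0.73, but -1.15 without CTRL at 6 h replicate 2, -0.47 without CTRL at 6 h replicate 3, -0.46 without GM at 24 h replicate 2 and -0.48 without CTRL at 24 h replicate 3), and Gbp6 (-0.88 ± 0.27, edgeR, adjusted p = 1.00) was the 1 gene of the 10 with an unadjusted p under 0.05. There were 3 such genes without GM at 24 h replicate 1, 4 without CTRL at 6 h replicate 2 and 6 without the 8 libraries low in supporting cell markers.

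**Figure D2:**
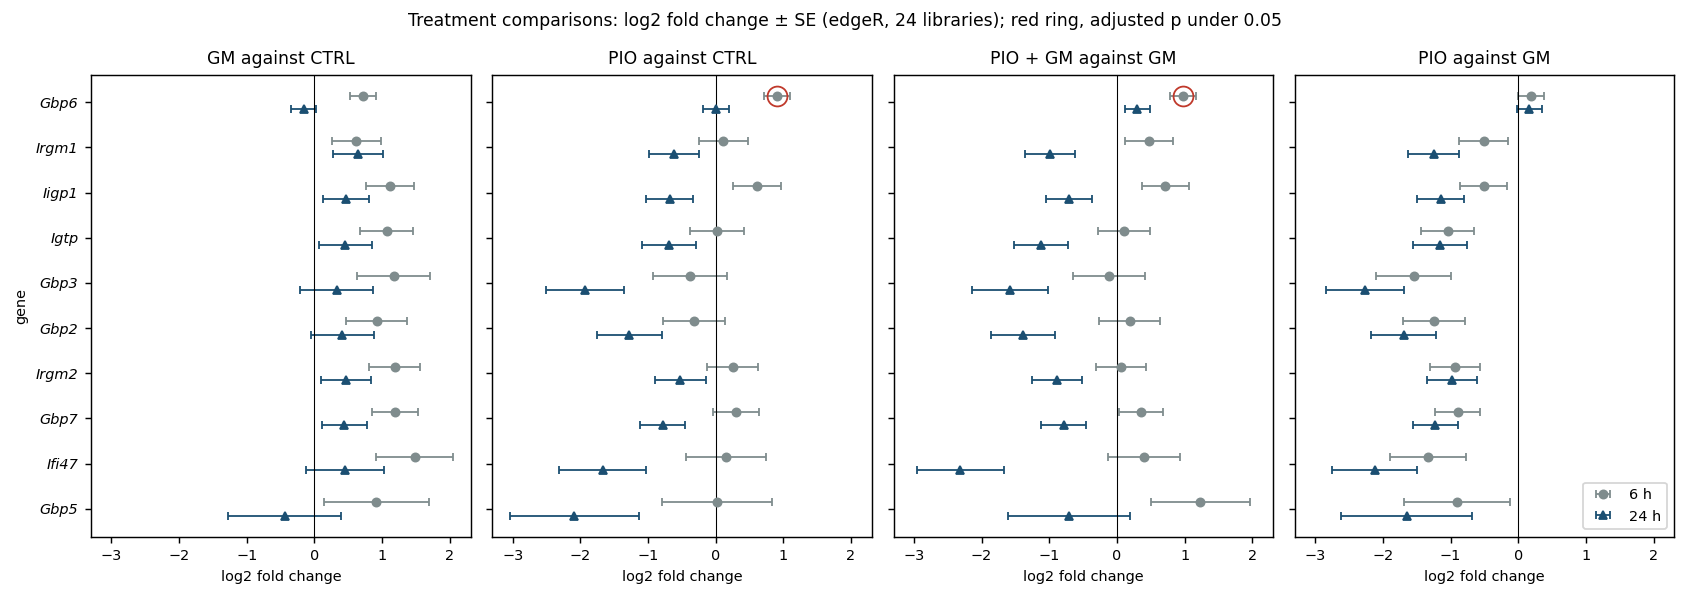
Log2 fold changes ± SE (x axis; edgeR, 24 libraries) of the 10 genes (y axis) in 4 treatment comparisons at 6 h and 24 h, with a red ring for adjusted p under 0.05. The ring appears at Gbp6 at 6 h in PIO against CTRL (0.91) and in PIO + GM against GM (0.98) and nowhere else, and at 24 h 9 of 10 genes are below 0 in each comparison that contains pioglitazone.

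The comparison of PIO with CTRL asks what the PPAR-γ agonist did without gentamicin. At 6 h Gbp6 rose, with log2 CPM of 5.17, 5.33 and 5.44 in CTRL and 6.32, 6.09 and 6.25 in PIO. Every PIO library was above every CTRL library, and the level was 1.88-fold that of CTRL (log2 fold change 0.91 ± 0.19, edgeR, adjusted p = 0.0461). It was 1 of 10 genes past the threshold, against 0.147% of all genes called higher. The call did not hold when any 1 of the 6 libraries was left out, at adjusted p from 0.0556 (without PIO replicate 3) to 0.157 (without CTRL replicate 1), while the log2 fold change stayed between 0.84 and 0.97. With the GC trend removed the log2 fold change was 0.76 (edgeR, adjusted p = 0.086), and 0.73 with the replicate block as well (0.0443). The other 9 genes had log2 fold changes between -0.38 and 0.61 and unadjusted p above 0.05, lowest for Iigp1 (adjusted p = 0.43), whose libraries did not overlap (3.86, 4.00 and 3.95 in CTRL, 4.77, 4.71 and 4.03 in PIO in log2 CPM). With Gbp6 this made 2 of 10 without overlap, against 8.68% of all genes. The median of the 10 was 0.13, from -0.24 without CTRL replicate 3 to 0.62 without CTRL replicate 2. Without the 8 libraries low in supporting cell markers the median was 0.73 and 2 genes were past the threshold, where 2.95% of all genes were called in either direction, Gbp6 (adjusted p = 0.0369) and Iigp1 (log2 fold change 0.85, adjusted p = 0.0467). Of the other family genes, Gbp10 had a log2 fold change of 0.96 ± 0.22 (edgeR, adjusted p = 0.0639), and no gene of the interferon lists was past the threshold. Of the receptors, Ifngr1 had the lowest p (0.42 ± 0.15, edgeR, adjusted p = 0.202), and of the negative regulators Pias1 (0.31 ± 0.12, edgeR, adjusted p = 0.224). Macrophage markers had negative log2 fold changes in 9 of 14, none with p under 0.05, Schwann cell markers in 8 of 8, 1 with p under 0.05, and HC markers in 7 of 12, 2 with p under 0.05, and 1 of 7 mesenchyme markers fell.

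At 24 h 9 of 10 genes were on average lower in PIO than in CTRL, and Gbp6 had a log2 fold change of 0.00 ± 0.19. The median was -0.74, none was past the adjusted threshold in edgeR (0.153% of all genes were), and DESeq2 called 1 of the 10 and 0.993% of all genes. At an unadjusted p under 0.05, 5 genes were lower against 6.51% of all genes, and the libraries of 5 did not overlap against 10.6% of all genes. Gbp3 had the lowest p, with log2 CPM of 4.14, 2.67 and 5.00 in CTRL and 2.69, 1.74 and 2.35 in PIO (log2 fold change -1.94 ± 0.58, edgeR, adjusted p = 0.206). CTRL replicate 2 lay just under PIO replicate 1, so the groups overlapped. Gbp2 had 3.42, 2.46 and 3.84 in CTRL and 1.91, 2.15 and 2.20 in PIO, without overlap (log2 fold change -1.28 ± 0.48, adjusted p = 0.357). Gbp7 had 4.75, 4.21 and 5.00 in CTRL and 3.93, 3.99 and 3.81 in PIO, also without overlap (log2 fold change -0.78 ± 0.34, adjusted p = 0.432). Ifi47, also without overlap, had 1.29, 0.02 and 1.83 in CTRL and -0.58, -0.09 and -0.20 in PIO in log2 CPM (log2 fold change -1.67 ± 0.64, adjusted p = 0.363). Gbp5 was near the floor, with counts of 17, 3 and 32 in CTRL and 1, 9 and 5 in PIO (adjusted p = 0.47). CTRL replicate 2 was the lowest CTRL library for all 10 genes, and PIO was below CTRL in all 3 same-numbered pairs for 7 genes, against 25.2% of all genes. With the replicate block Iigp1 (-0.68 ± 0.19, edgeR, adjusted p = 0.0918) took the place of Gbp5 among the 5. With the GC trend removed as well, Gbp3 passed the adjusted threshold (-1.79 ± 0.47, edgeR, adjusted p = 0.0467), in a fit whose share of all genes is not given here. The PIO libraries lay within 2.80 to 2.93 in the mean log2 CPM of the 10 genes against 2.98 to 4.38 in CTRL.

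The count of 5 rested on single libraries. It was 1 (Gbp3) without CTRL replicate 3, where Gbp6 had p under 0.05 in the other direction (0.34 ± 0.16, edgeR, adjusted p = 0.723), 2 without PIO replicate 1, 3 without CTRL replicate 1 or PIO replicate 3, 7 without CTRL replicate 2 and 9 without the 8 libraries low in supporting cell markers. Of the other lists, Ciita, the class II transactivator, had counts of 13, 15 and 13 in CTRL and 2, 5 and 2 in PIO (edgeR, adjusted p = 0.0647), Nlrc5, the class I transactivator, had a log2 fold change of -1.49 ± 0.55 (adjusted p = 0.34), and Tgtp1 and Tgtp2 had adjusted p of 0.356 and 0.239. The chromosome 5 genes Gbp4, Gbp8, Gbp9, Gbp10 and Gbp11 did not have p under 0.05. Macrophage markers had positive log2 fold changes in 8 of 14, 1 of the others with p under 0.05, T and NK cell markers summed to 0.789 to 2.01 CPM in PIO against 2.57 to 3.39 CPM in CTRL, and 8 of 8 endothelial markers had negative log2 fold changes with p under 0.05 for none. Mesenchyme markers summed to 2642 to 3525 CPM in PIO against 3931 to 4167 CPM in CTRL, and B cell markers to 0.322 to 0.649 against 0.664 to 1.03 CPM. The sums of the other cell types overlapped, and the part of any of these cells was not tested. The difference between the pioglitazone effects at 24 and 6 h was negative for all 10 genes (median -1.01, and -1.67 without the 8 libraries low in supporting cell markers) but passed the adjusted threshold for none by edgeR (0% of all genes) or DESeq2. At an unadjusted p under 0.05 it was lower for 4 genes against 3.29% of all genes, Gbp6 (-0.91 ± 0.27), Iigp1 (-1.29 ± 0.50), Gbp7 (-1.08 ± 0.48) and Ifi47 (-1.82 ± 0.87), each with adjusted p = 0.898 in edgeR. This count was 1 without CTRL at 24 h replicate 3, 2 without CTRL at 6 h replicate 1 or 3, PIO at 6 h replicate 1, CTRL at 24 h replicate 1 or any PIO library at 24 h, 6 without CTRL at 24 h replicate 2, 9 without CTRL at 6 h replicate 2 and 10 without the 8 libraries low in supporting cell markers.

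When pioglitazone was given with gentamicin, the comparison with GM asks what it added. At 6 h Gbp6 rose from 5.96, 5.81 and 6.29 in GM to 7.07, 6.87 and 7.08 in PIO + GM in log2 CPM. The groups did not overlap, and the level was 1.97-fold that of GM (log2 fold change 0.98 ± 0.19, edgeR, adjusted p = 0.0258), 1 of 10 genes past the threshold against 0.601% of all genes called higher. The call was lost without GM replicate 1 (adjusted p = 0.111), GM replicate 2 (0.0785), PIO + GM replicate 2 (0.0819) or PIO + GM replicate 3 (0.104). With any 1 library left out the log2 fold change stayed between 0.87 and 1.12. With the GC trend removed it was 0.68 (edgeR, adjusted p = 0.127), and 0.69 with the replicate block as well (0.0548). The call was also lost in fits of 12 or 6 libraries (adjusted p = 0.184 and 0.262). Iigp1 had 4.82, 5.08 and 5.21 in GM and 5.78, 5.93 and 5.53 in PIO + GM, also without overlap (log2 fold change 0.71 ± 0.35, edgeR, adjusted p = 0.205), which made 2 of 10 against 11.6% of all genes, and was past the threshold without the 8 libraries low in supporting cell markers (0.79, adjusted p = 0.0229), where 19.1% of all genes were called in either direction. For the other 8 genes the log2 fold changes lay between -0.12 and 1.23, and all groups overlapped. Gbp5 showed the widest spread, with counts of 26, 37 and 63 in GM and 194, 40 and 21 in PIO + GM. The median of the 10 was 0.37 and turned to -0.18 without PIO + GM replicate 1, was 0.17 without GM replicate 1 and 0.61 without PIO + GM replicate 3, and with the 8 libraries left out it was 0.0028 and 5 of 10 genes were higher. Gbp8 was the 1 listed gene past the threshold (log2 fold change 1.02 ± 0.23, edgeR, adjusted p = 0.0388), with Gbp10 (0.85 ± 0.22, adjusted p = 0.0541), Gbp4 (0.70 ± 0.19, 0.064) and Gbp9 (0.53 ± 0.17, 0.0906) next in that family. Among the negative regulators Ptpn2, a phosphatase of JAK and STAT proteins (0.47 ± 0.15), and Pias1 (0.38 ± 0.12) had adjusted p = 0.0822, and Tyk2 was the kinase with the lowest p (-0.43 ± 0.18, adjusted p = 0.157). Of 14 macrophage markers 10 and of 8 Schwann cell markers 8 had negative log2 fold changes, with p under 0.05 for 2 Schwann cell markers and for 1 macrophage marker that was higher.

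At 24 h the 9 genes other than Gbp6 were on average lower in PIO + GM than in GM, with a median of the 10 of -0.94. None passed the adjusted threshold in edgeR (0.11% of all genes did), and DESeq2 called 1 of the 10 and 0.625% of all genes. At an unadjusted p under 0.05, 7 were lower against 4.74% of all genes, and 3 had libraries without overlap against 8.57% of all genes. Ifi47 had the lowest p, with log2 CPM of 2.10, 0.88 and 1.69 in GM and 0.02, -0.90 and -0.63 in PIO + GM. No library overlapped (log2 fold change -2.32 ± 0.65, edgeR, adjusted p = 0.259). Gbp2 had 3.69, 3.35 and 4.10 in GM and 2.53, 2.28 and 2.32 in PIO + GM (log2 fold change -1.39 ± 0.48, edgeR, adjusted p = 0.425), and Igtp had 4.31, 3.34 and 4.05 in GM and 3.17, 2.65 and 2.62 in PIO + GM (-1.13 ± 0.40, adjusted p = 0.455). Both were separated between the groups. Gbp3, with 4.94, 3.20 and 4.91 in GM and 3.72, 2.37 and 2.36 in PIO + GM (-1.58 ± 0.56, edgeR, adjusted p = 0.455), and Irgm1, with 5.87, 4.74 and 5.49 in GM and 4.90, 4.18 and 4.14 in PIO + GM (-0.99 ± 0.37, adjusted p = 0.477), overlapped through GM replicate 2 and PIO + GM replicate 1. Irgm2 (-0.89 ± 0.37, adjusted p = 0.564) and Gbp7 (-0.78 ± 0.33, adjusted p = 0.576) completed the 7. Gbp6 had a log2 fold change of 0.30 ± 0.19 (adjusted p = 0.785), with all PIO + GM libraries above all GM libraries, as for 9.84% of all genes. The count of 7 was 3 without GM replicate 1, 4 without PIO + GM replicate 2 or 3, and 8 without the 8 libraries low in supporting cell markers.

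Among the lists, Tgtp2 had counts of 94, 20 and 22 in GM and 13, 8 and 8 in PIO + GM at 24 h (edgeR, adjusted p = 0.19), Tgtp1 had a log2 fold change of -2.05 ± 0.70, Nlrc5 of -1.27 ± 0.54 and Usp18 of -1.54 ± 0.69 (adjusted p = 0.421, 0.574 and 0.62). No listed gene was past the threshold. Of the 14 macrophage markers 13 and of the 8 endothelial markers 8 had negative log2 fold changes, none with p under 0.05. Mesenchyme markers summed to 2978 to 3313 CPM in PIO + GM against 3984 to 4835 CPM in GM, and the sums of the other cell types overlapped. The part of any of these cells in the lower levels was not tested. The difference between the effects of adding pioglitazone at 24 and at 6 h was negative for all 10 genes, with a median of -1.44, and passed the adjusted threshold for none in edgeR (0% of all genes) or DESeq2. At an unadjusted p under 0.05, 7 were lower against 2.16% of all genes, with the lowest p for Ifi47 (-2.71 ± 0.84), Iigp1 (-1.42 ± 0.49) and Irgm1 (-1.46 ± 0.52), all with adjusted p = 0.843 in edgeR. The count was 4 without GM at 6 h replicate 1 or without PIO + GM at 6 h replicate 1, and 3 with the GC trend removed and a replicate block. The median was -0.87 without PIO + GM at 6 h replicate 1.

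PIO was also set beside GM, a comparison that shares the GM libraries with the previous one and so is no independent reading. At 6 h 9 of 10 genes were on average lower in PIO (median -0.92), none past the adjusted threshold in edgeR or DESeq2 (0.129% of all genes by edgeR). With the GC trend removed and the replicate number as a block, 2 of the 10 passed in edgeR, a fit whose share of all genes is not given here. At an unadjusted p under 0.05, 6 were lower against 7.21% of all genes, and the libraries of 7 did not overlap against 8.71% of all genes. In all 3 same-numbered pairs PIO was below GM for 8 genes, against 23.4% of all genes. Gbp3 had 4.98, 5.43 and 5.67 in GM and 3.99, 4.02 and 3.49 in PIO in log2 CPM, with every PIO library lower (log2 fold change -1.55 ± 0.55, edgeR, adjusted p = 0.201), and Gbp2 (-1.24), Gbp7 (-0.89), Igtp (-1.04), Irgm2 (-0.93) and Ifi47 (-1.33) followed (adjusted p = 0.217 to 0.269). The count of 6 was 2 without GM replicate 3 and 3 without GM replicate 2, PIO replicate 2 or PIO replicate 3. The log2 fold changes of 9 of 9 transcription factors were negative too, 4 with p under 0.05 (among them Nlrc5 -1.30, Irf9 -0.55 and Irf7 -1.45). Usp18 (-1.74 ± 0.67, edgeR, adjusted p = 0.233), Tgtp1 (-1.50), Tgtp2 (-1.44) and Gvin1 (-0.97) had the same sign and p under 0.05, and Ptpn2 (0.41) and Pias1 (0.26) the opposite one. Schwann cell markers had negative log2 fold changes in 8 of 8, 4 with p under 0.05, and macrophage markers in 11 of 14, none with p under 0.05.

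At 24 h the contrast between PIO and GM had the median largest in size of the 8 treatment comparisons made for the 10 genes, -1.24. PIO + GM against CTRL was not among them. With 1 library left out this median ran from -1.50 to -0.96, and that of GM against CTRL at 6 h (1.09) from 0.80 to 1.56. On average 9 of 10 were lower in PIO, and 8 had an unadjusted p under 0.05, against 6.55% of all genes. The libraries of 8 did not overlap, against 10.1% of all genes. None passed the adjusted threshold in edgeR, against 0.454% of all genes, though the likelihood ratio test called 3 of the 10 and 1.46% of all genes, and DESeq2 called 5 of the 10 and 1.56% of all genes. Gbp3 was closest, with log2 CPM of 4.94, 3.20 and 4.91 in GM and 2.69, 1.74 and 2.35 in PIO (log2 fold change -2.26 ± 0.58, edgeR, adjusted p = 0.0973), followed by Gbp7 (-1.23), Gbp2 (-1.69), Irgm1 (-1.25), Ifi47 (-2.12), Iigp1 (-1.14), Igtp (-1.15) and Irgm2 (-0.98), with adjusted p from 0.128 to 0.317. Gbp6 had a log2 fold change of 0.16. Without GM replicate 2, Gbp3 and Iigp1 passed the adjusted threshold against 0.392% of all genes, and without the 8 libraries low in supporting cell markers 4 did against 0.484% of all genes, Gbp7 (-1.52, adjusted p = 0.0277), Gbp2 (-1.89, 0.0335), Gbp3 (-2.42, 0.0368) and Iigp1 (-1.27, 0.0219). Of the lists, Tgtp2 (counts of 94, 20 and 22 in GM, 2, 3 and 3 in PIO; edgeR, adjusted p = 0.00939) and Ciita (15, 25 and 12 in GM, 2, 5 and 2 in PIO; adjusted p = 0.0208) fell. All 3 PIO counts of Tgtp2 and 2 of those of Ciita were at or under the floor of 3 counts. Tgtp1 (-3.32 ± 0.77, adjusted p = 0.0582) was the next of the family. Macrophage markers had negative log2 fold changes in 11 of 14, 1 with p under 0.05, and endothelial markers in 8 of 8, none with p under 0.05. Mesenchyme markers summed to 2642 to 3525 CPM in PIO against 3984 to 4835 CPM in GM. The sums were 0.789 to 2.01 against 2.11 to 3.56 CPM for T and NK cells and 0.322 to 0.649 against 1.23 to 1.54 CPM for B cells. Those of the other cell types overlapped, and the part of any of these cells was not tested.

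Between 6 and 24 h some of the 10 genes rose in CTRL and others fell in PIO and PIO + GM. In CTRL, Gbp6 rose from 5.17, 5.33 and 5.44 to 6.50, 6.10 and 7.16 in log2 CPM, 2.53-fold (log2 fold change 1.34 ± 0.19, edgeR, adjusted p = 6.77e-05), and Iigp1 rose from 3.86, 4.00 and 3.95 to 5.63, 4.90 and 5.85, which was 3.00-fold (1.58 ± 0.36, adjusted p = 0.00289). For both genes every 24 h library was above every 6 h library, as for 24.1% of all genes. These were 2 of 10 against 14.8% of all genes called higher, and the median of the 10 was 0.16. The median ran from -0.22 without CTRL at 24 h replicate 3 to 0.94 without CTRL at 6 h replicate 2, where Gbp7 also passed (1.15, adjusted p = 0.0286) and 16.5% of all genes were called in either direction. It was 1.24 without the 8 libraries low in supporting cell markers, where Gbp7 (1.35, adjusted p = 0.00383) and Irgm2 (1.12, adjusted p = 0.0398) also passed the threshold and 19.6% of all genes were called in either direction.

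In GM none of the 10 passed the threshold in edgeR's quasi-likelihood test, where 24.2% of all genes changed in either direction, though DESeq2 called 2 of the 10 and 28.2% of all genes, and the likelihood ratio test called 2 of the 10 and 26% of all genes. Iigp1 (0.93 ± 0.35, adjusted p = 0.0562), Gbp2 (-1.18 ± 0.45, 0.064) and Gbp6 (0.46 ± 0.19, 0.0805) had an unadjusted p under 0.05. In each of 3 fits 1 of the 10 passed, Gbp2 (lower) without GM at 6 h replicate 1 against 18% of all genes, Gbp6 (higher) without GM at 6 h replicate 3 against 22.8%, and Iigp1 (higher) without GM at 24 h replicate 2 against 17.8%. The median of the 10 was -0.49 in all 24 libraries and -0.18 without the 8 libraries low in supporting cell markers, and without the 8 libraries Gbp6 (0.67, adjusted p = 0.0204) and Iigp1 (1.37, adjusted p = 0.000552) did, against 25.9% of all genes in either direction.

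In PIO 4 genes fell, against 15.8% of all genes called lower. Irgm1 fell from 5.61, 5.67 and 5.23 to 4.26, 4.29 and 4.02 in log2 CPM (log2 fold change -1.33 ± 0.37, edgeR, adjusted p = 0.0125), and Gbp2 from 3.82, 3.86 and 3.32 to 1.91, 2.15 and 2.20 (-1.63 ± 0.48, adjusted p = 0.0173). Gbp3 (-1.57 ± 0.58, adjusted p = 0.0475) and Ifi47 (-1.74 ± 0.64, adjusted p = 0.0484) were just past the threshold, and for all 4 the 24 h libraries were below the 6 h libraries. Gbp5 and Igtp were separated in the same way, which made 6 of 10 genes against 20.7% of all genes. The count was 1 without PIO at 6 h replicate 2 or PIO at 24 h replicate 1, 2 without PIO at 6 h replicate 1 or PIO at 24 h replicate 2 or 3, and 4 without PIO at 6 h replicate 3, where between 16.5% and 36.6% of all genes were called in either direction. Gbp6 had 0.43 ± 0.19 (adjusted p = 0.089) and Iigp1 0.30 ± 0.35 (adjusted p = 0.547). Without the 8 libraries low in supporting cell markers 5 genes were called, against 34.1% of all genes in either direction. The added gene was Gbp5, at -3.30 (adjusted p = 0.00324) against an adjusted p of 0.0708 in all 24 libraries.

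In PIO + GM 8 of the 10 genes fell, against 17% of all genes called lower, with a median of -1.83, and all 8 were separated between the times against 20.7% of all genes. Ifi47 fell from 3.72, 2.49 and 1.98 to 0.02, -0.90 and -0.63 in log2 CPM, to a level 12.6-fold lower (log2 fold change -3.66 ± 0.65, edgeR, adjusted p = 0.000364). Gbp2 fell from 5.85, 4.86 and 4.00 to 2.53, 2.28 and 2.32, 6.76-fold lower (-2.76 ± 0.49, adjusted p = 0.00037). The 6 h libraries were spread more widely than the 24 h libraries. Irgm1 fell from 6.92, 6.57 and 5.77 to 4.90, 4.18 and 4.14 (-2.05 ± 0.38, adjusted p = 0.000508). Gbp5 went from 194, 40 and 21 counts to 6, 9 and 11 (-3.52 ± 0.85, adjusted p = 0.00378). Gbp3 (-2.31 ± 0.57, adjusted p = 0.00434), Igtp (-1.62 ± 0.40, 0.00459), Gbp7 (-1.19 ± 0.33, 0.00998) and Irgm2 (-1.06 ± 0.37, 0.0342) made up the rest. Gbp6 (-0.22 ± 0.19) and Iigp1 (-0.49 ± 0.35) did not pass the threshold (adjusted p = 0.381 and 0.275). Without PIO + GM at 6 h replicate 1 the calls of Gbp7 (adjusted p = 0.0646) and Irgm2 (0.226) were lost, Irgm2 was also lost without PIO + GM at 24 h replicate 2 or 3 (0.115 and 0.0995) while between 26.6% and 37.7% of all genes were called in these 3 fits, and without the 8 libraries 7 genes were called against 37% of all genes in either direction and the median was -1.28. The sizes moved as well. Without PIO + GM at 6 h replicate 1 the log2 fold change was -2.99 for Ifi47, -2.22 for Gbp5 (adjusted p = 0.0401), -2.17 for Gbp2 -1.01 for Igtp (adjusted p = 0.0427) and -0.58 for Irgm2, and without PIO + GM at 24 h replicate 1 it was -2.95 for Gbp3. Without the 8 libraries it was -2.75 for Ifi47, -2.25 for Gbp5, -2.11 for Gbp2, -1.68 for Gbp3, -0.91 for Igtp and -0.44 for Irgm2 (adjusted p = 0.336).

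**Figure D3:**
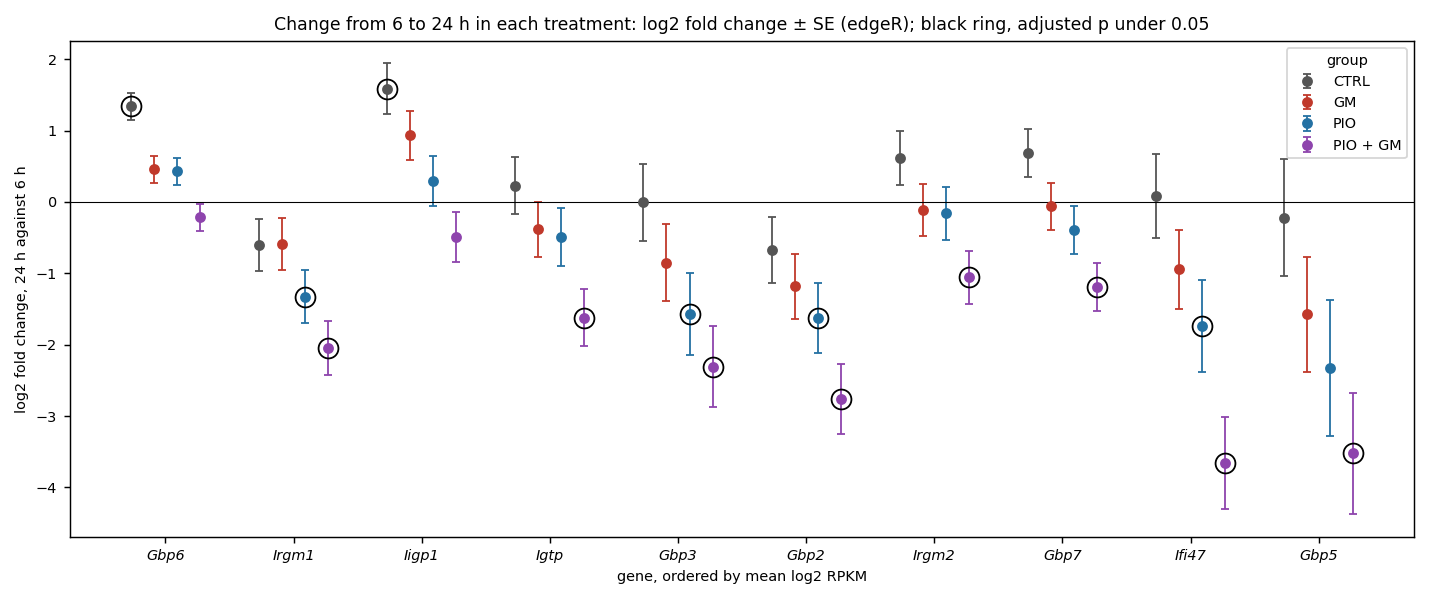
Log2 fold change ± SE (y axis; edgeR, 24 libraries) from 6 to 24 h for the 10 genes in order of mean log2 RPKM (x axis), in the 4 treatments, with a black ring for adjusted p under 0.05. Gbp6 and Iigp1 carry rings above 0 in CTRL (1.34 and 1.58), and 4 genes in PIO and 8 in PIO + GM carry rings below 0.

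The other genes of the pathway were followed over the same interval. Of all genes, 14.8% were called higher in CTRL, 24.2% in either direction in GM, 15.8% lower in PIO and 17% lower in PIO + GM. The chromosome 5 genes Gbp4, Gbp8, Gbp9, Gbp10 and Gbp11 rose in CTRL (log2 fold changes from 1.20 for Gbp4 to 2.01 for Gbp8), in GM (from 0.79 for Gbp4 to 1.59 for Gbp8) and in PIO (from 0.83 for Gbp11 to 1.45 for Gbp8), each with adjusted p under the threshold in edgeR. In PIO + GM, Gbp8 (0.62 ± 0.22, adjusted p = 0.0365) and Irgq (0.52 ± 0.19, adjusted p = 0.0352) rose. Gvin1, a very large interferon-inducible GTPase, fell in all 4 treatments, from -1.39 ± 0.41 in CTRL to -2.61 ± 0.42 in PIO + GM (adjusted p = 0.0155 and 0.000183). Tgtp1 and Tgtp2 fell in PIO (-2.11 and -2.88) and in PIO + GM (-2.49 and -2.51), and Gm12250 fell in GM (-1.34). Of 9 transcription factors, 0 passed in CTRL (edgeR, and 0 with p under 0.05), Nlrc5 fell in GM (-1.69), Nlrc5 (-1.99) and Ciita (-2.92) fell in PIO, and Nlrc5 (-2.85), Irf9 (-0.97) and Stat2 (-1.14) fell in PIO + GM. Among the kinases Jak1 fell in all 4 (-0.53 to -0.65), Jak2 fell in PIO (-0.53) and PIO + GM (-0.49), and Tyk2 rose in PIO (0.51) and PIO + GM (0.86). Of the negative regulators Ptpn2 fell in CTRL, PIO and PIO + GM (-0.53, -0.69 and -0.73), Socs3 fell in CTRL (-1.23), Usp18 fell in PIO + GM (-2.58, adjusted p = 0.00814), and Pias1 rose in CTRL and GM (0.43 and 0.35). Over this interval 12 to 14 of the 14 macrophage markers had positive log2 fold changes in each treatment, with 1 past the threshold in CTRL, 1 in GM, 3 in PIO and 4 in PIO + GM. Schwann cell markers fell over the same interval in 3 of 8 in CTRL, 5 in GM, 3 in PIO and 3 in PIO + GM, both B cell markers tested fell in PIO, and the part of these cells was not tested.

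A comparison of the time courses of PIO + GM and CTRL was added after the data were seen. It was negative for all 10 genes (median -1.98). None passed the adjusted threshold in edgeR's quasi-likelihood test (0% of all genes), 3 did by DESeq2 (0.0735% of all genes) and 3 by the likelihood ratio test (0.0919%), and all 10 had an unadjusted p under 0.05, against 3.65% of all genes. Gbp6 had the lowest p of all 16317 genes here (-1.56 ± 0.27, edgeR, adjusted p = 0.184). Ifi47 (-3.74 ± 0.87, adjusted p = 0.426), Iigp1 (-2.08 ± 0.50, 0.457) and Gbp7 (-1.88 ± 0.47, 0.556) came next among the 10. Without CTRL at 24 h replicate 2, Gbp6 passed (-1.77, adjusted p = 0.00586), against 0.00613% of all genes. Without the 8 libraries low in supporting cell markers Gbp6 (-1.85) and Iigp1 (-2.09) passed (adjusted p = 0.0383 for both), against 0.0552% of all genes.

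**Figure D4:**
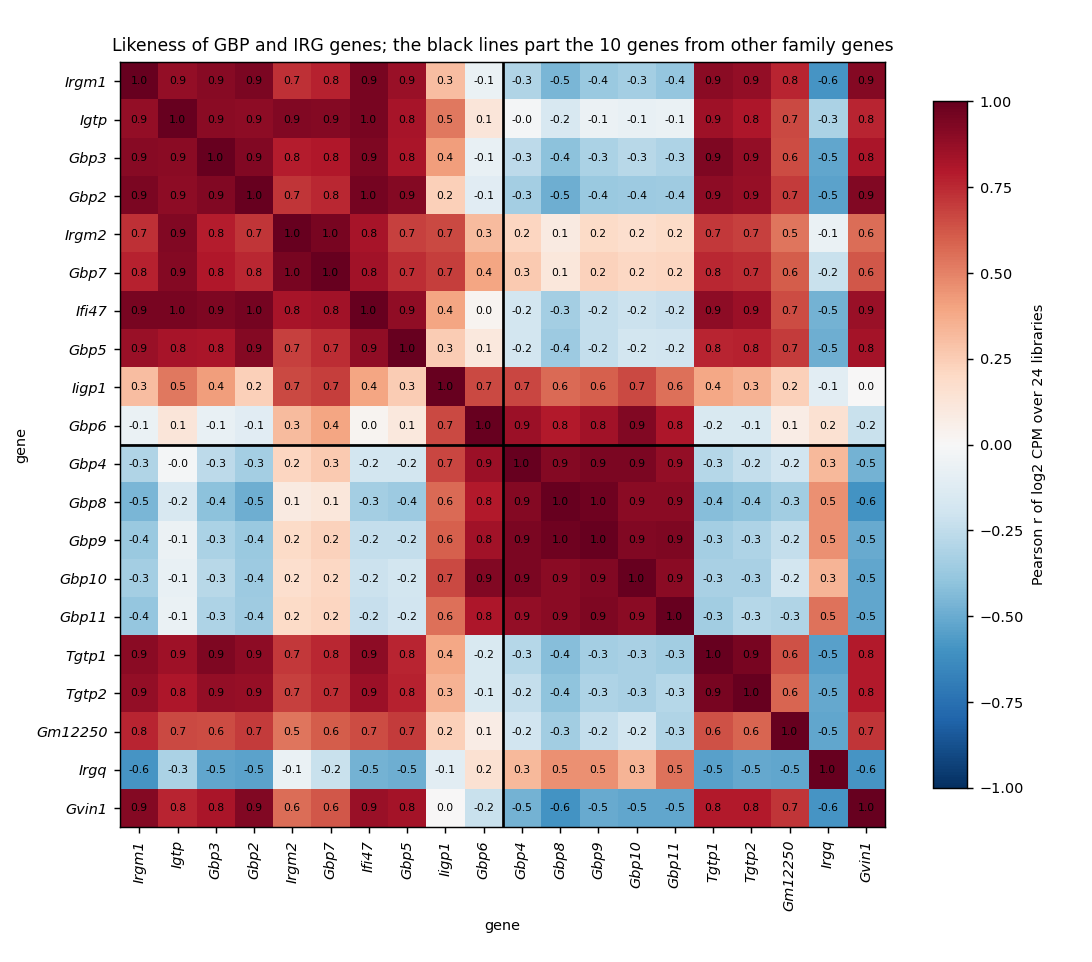
Pearson correlation of log2 CPM over the 24 libraries (colour) between the 10 genes and 10 further tested GBP and IRG genes (both axes), with lines that part the 2 sets. Gbp6 is pale against most of the 10 (median r 0.108) and dark against Gbp10 (0.925), Gbp4 (0.855) and Gbp9 (0.843).

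Over the 24 libraries, pairs of the 9 genes other than Gbp6 had a median Pearson r of 0.826 in log2 CPM, from 0.237 (Gbp2 and Iigp1) to 0.957 (Gbp2 and Ifi47), and of 0.811 after the group means were removed. These points share libraries, groups and depth, and the r are given as a description. Iigp1 was the loosest of the 9, with a median r of 0.409 against the other 8. For Gbp6 the median r was 0.108, from -0.11 with Gbp2 to 0.659 with Iigp1, and within groups 0.332. Gbp6 went with the GBP genes of its own cluster, at 0.925 with Gbp10, 0.855 with Gbp4, 0.843 with Gbp9, 0.810 with Gbp11 and 0.796 with Gbp8, and reads shared with Gbp10 may enter both counts. Against the mean of the 10 genes, Tgtp1 (0.843), Tgtp2 (0.812), Gvin1 (0.738) and Gm12250 (0.677) were the family genes most alike, and the chromosome 5 genes had r between -0.079 and 0.0859.

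Tested genes outside the 10 and outside the family and interferon lists were ranked by likeness to the mean of the set. Of these, the 10 whose log2 CPM was most like it over the 24 libraries were Ifih1 (r = 0.970), Ifit3 (0.954), Gm4951 (0.942), Ifit3b (0.942), Herc6 (0.942), Oasl2 (0.938), Parp9 (0.937), Ifit2 (0.934), Dtx3l (0.933) and Ddx60 (0.931). Ifih1 encodes the RNA sensor MDA5, and the IFIT and OAS genes are antiviral effectors. Against the mean of the 9 genes without Gbp6, Usp18 had r = 0.961, Irf9 0.914, Stat2 0.863, Irf7 0.856 and Irf1 0.446. The summed markers had r = -0.243 for macrophages, 0.536 for Schwann cells, 0.495 for B cells, 0.436 for T and NK cells, 0.186 for endothelial cells, 0.172 for mesenchyme, 0.0459 for supporting cells and -0.242 for HCs.

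**Figure D5:**
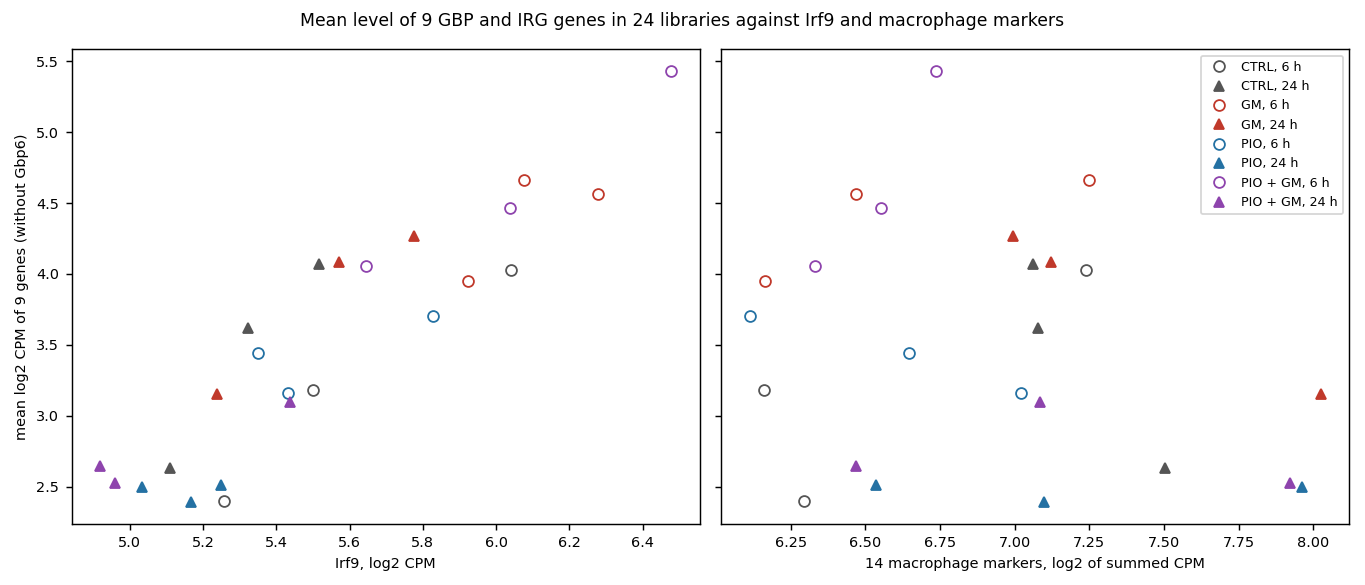
Mean log2 CPM of the 9 genes other than Gbp6 (y axis) in the 24 libraries against log2 CPM of Irf9 and against the log2 of the summed CPM of 14 macrophage markers (x axes), coloured by treatment, with open circles for 6 h and triangles for 24 h. The points climb with Irf9 (Pearson r = 0.914, Spearman rho = 0.886). Against the macrophage sum r was -0.243 and rho -0.162 with both times pooled. The median macrophage sum was higher at 24 h than at 6 h in every treatment (in CTRL 135 against 78.5 CPM), and r within a time is not given here.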

How the data were processed

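Counts per gene were used as deposited by the authors, who mapped the reads with STAR (mm10, per the submitters' processing notes) and counted them in RefSeq exons with QuasR; the counts were neither normalized nor filtered, and strand use and the treatment of multiply matching reads are not given in the sources used here. Each library was run on 2 flow cells according to the labels. Libraries were single reads of a stranded total RNA kit. The 24 libraries were fitted in R 4.3.3 with edgeR 4.0.16 as 1 model with a mean per group (TMM factors 0.961 to 1.04, filterByExpr, quasi-likelihood F-test, Benjamini-Hochberg adjustment over 16317 genes, threshold 0.05). The SE is the log2 fold change over the root of its F value. A prior count of 2 was added for log2 CPM and log2 RPKM. DESeq2 1.42.0, Python 3.11.15, pandas 2.3.3, numpy 2.4.6 and matplotlib 3.10.9 were also used, and the fit was tested on simulated data.

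The 10 genes and all lists were chosen with earlier results of these data known. Gene names come from 24381 matched identifiers. Named are each of the 10 genes with p under 0.05 or the lowest p in a comparison, with values per library for up to 5 in comparisons with CTRL or with GM, list genes past the threshold or with the lowest p, and the 10 genes most like the mean. Some results of the lists are not reported here.

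Same-numbered libraries were checked for pairing by the correlation of their deviations from group means. All 3 correlations exceeded 0.1 for GM and CTRL at 24 h (0.428, 0.723 and 0.595), PIO and CTRL at 24 h (0.107, 0.561 and 0.227) and PIO and GM at 6 h (0.185, 0.434 and 0.684), and a replicate block alone changed no count of called genes there. With the GC trend removed as well, the count was 2 for PIO against GM at 6 h and 1 for PIO against CTRL at 24 h instead of 0. The shares of all genes called in these fits are not given here, so these counts cannot be set against them. Alternatives were library sizes without TMM factors, other filters, a likelihood ratio test, DESeq2, fits of 12 or 6 libraries, removal of a GC trend, the block, another prior count and leaving out each library. Fits of 16 libraries, a supporting cell covariate and the time course of PIO + GM against CTRL were added after the data were seen.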

Additional observations from a re-analysis of the deposited data

How the results depend on the processing

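No value turned its sign under any alternative run where it had been called. Shares of all genes are given above for some of the alternatives only, so the counts below describe the processing and are no result about the 10 genes. The count of called genes among the 10 moved as follows. For PIO against CTRL at 6 h it was 0 without a filter, in fits of 12 or of 6 libraries and with the GC trend removed, instead of 1. For PIO + GM against GM at 6 h it was 0 in fits of 12 or 6 libraries, 0 with the GC trend removed, 0 with the trend removed and the replicate block, and 2 with the replicate block alone, instead of 1. Instead of 0, it was 2 for PIO against GM at 6 h with GC and block, 1 for PIO against CTRL at 24 h by DESeq2 and with GC and block, 1 for PIO + GM against GM at 24 h by DESeq2, and for PIO against GM at 24 h 3 by the likelihood ratio test, 5 by DESeq2, 1 in a fit of 12 libraries, 3 with the block and 2 with GC and block. From 6 to 24 h in GM it was 2 by the likelihood ratio test, 2 by DESeq2, 3 in a fit of 6 libraries and 1 with the GC trend removed, and in PIO, instead of 4, 2 without a filter, 3 with the GC trend removed (Gbp2, Irgm1 and, higher, Gbp6, while Gbp3 and Ifi47 had adjusted p of 0.0586 and 0.0625), 3 with a minimum of 10 counts and 5 by the likelihood ratio test or DESeq2. In PIO + GM it was 7 instead of 8 without a filter, in a fit of 6 libraries and with the GC trend removed, where Irgm2 was lost (adjusted p = 0.0507, 0.0557 and 0.0586), and 6 with a minimum of 10 counts. The difference between the pioglitazone effects at the 2 times had an unadjusted p under 0.05 for 2 genes instead of 4 with the GC trend removed, and PIO against CTRL at 24 h for 3 instead of 5 with a minimum of 10 counts. A minimum of 10 counts in every library left out Gbp5 and Ifi47 and moved the median of PIO from -0.91 to -0.47. In the 16 libraries left without the 8 low in supporting cell markers, an alternative added after the data were seen, the counts were 2 (PIO against CTRL at 6 h, median 0.73), 2 (PIO + GM against GM at 6 h), 4 (PIO against GM at 24 h), 4 (time in CTRL, median 1.24), 2 (time in GM), 5 (time in PIO) and 7 (time in PIO + GM), and the median over time in PIO + GM was -1.28. Apart from the alternatives' own construction (fewer libraries, fewer genes), the cause was not tested. With the sum of these markers as a covariate, the counts of called genes were the same as reported.

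Leaving out 1 library at a time gave 0 for PIO against CTRL at 6 h, 0 to 1 for PIO + GM against GM at 6 h, 0 to 2 for PIO against GM at 24 h, and over time 2 to 3 in CTRL, 0 to 1 in GM, 1 to 4 in PIO and 6 to 8 in PIO + GM, and 0 in the other treatment comparisons. The medians ran from 0.80 to 1.56 (GM against CTRL at 6 h), -0.24 to 0.62 (PIO against CTRL at 6 h), -0.18 to 0.61 (PIO + GM against GM at 6 h), -1.17 to -0.80 (PIO against GM at 6 h), 0.13 to 0.71, -0.95 to -0.54, -1.22 to -0.74 and -1.50 to -0.96 (the same at 24 h), and over time -0.22 to 0.94 in CTRL, -0.73 to -0.24 in GM, -1.05 to -0.80 in PIO and -2.10 to -1.40 in PIO + GM. In the other comparisons made, not every correlation between same-numbered libraries exceeded 0.1, though at 24 h those of the replicate 2 libraries ran from 0.471 to 0.723. A block holds 1 time point, so no paired analysis was possible because time and block coincide for 24 h against 6 h. Depth limits Gbp5 and Ifi47, at 1 and 5 counts in their lowest libraries.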

Other observations

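The mean log2 CPM of the 10 genes in the library of each group lowest in supporting cell markers had no single place within its group. It was the highest of 3 in CTRL at 6 h (4.16), GM at 6 h (4.83) and PIO + GM at 6 h (5.60), and the lowest of 3 in PIO at 6 h (3.47), CTRL at 24 h (2.98), GM at 24 h (3.48) and PIO + GM at 24 h (2.97), and in PIO at 24 h (2.92) it lay between the others. The same libraries had the highest macrophage sum of their group in all 8 groups, 107 to 152 CPM at 6 h and 181 to 260 CPM at 24 h.

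Besides its cluster neighbours, the genes most like Gbp6 over the 24 libraries were Trim12a (r = 0.843), Rbl2 (0.823), Trim12c (0.822) and Ccdc77 (0.812). For the mean of the 10 genes, the first gene outside them and outside the family and interferon lists was Ifih1.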
